A study of Homo sapiens with 4 samples.

Results

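The miRNAs of the imprinted clusters on chromosome bands 14q32 and 19q13 were chosen by their miRNA numbers in the table of deposited values, leaving out star (minor) strands. The choice gave 91 of 939 miRNAs, 52 from 14q32 and 39 from 19q13, against 760 other human miRNAs and 88 viral miRNAs on the same arrays. The series held 4 arrays of the human colon cancer line HCT116, 2 of MG cells, a highly migratory subpopulation, and 2 of non-MG cells, of low migratory capacity. Both were taken from the same line by repeated transwell selection. MG cells were those that crossed the membrane, and non-MG cells those that stayed on its upper side. Both were thus selected populations of 1 line, with no further treatment or genetic change named. Nothing in the labels said that replicates came from separate cultures, so p-values measure only the spread between these arrays, which may be technical.

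Imprinted genes are read from only the maternal or only the paternal copy of a chromosome. The 14q32 miRNAs lie in the DLK1-DIO3 domain and are made from long noncoding RNAs of the maternal copy, with high levels known in brain, placenta and early embryonic cells. The 19q13 cluster, C19MC, is found in primates, is read from the paternal copy and is known chiefly from placenta and pluripotent cells. A mature miRNA pairs with its target mRNAs mainly through its seed, bases 2 to 8 from its 5′ end.

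The sequences below carry the main contrast on 14q32. MiR-494-3p was the detected member, and the others are mature miRNAs of the nearest hairpin genes on either side for which an array probe and a sequence were at hand. Capitals mark the seed; sequences and positions are those of RefSeq on GRCh38.p14.
hsa-miR-329-3p: aACACACCugguuaaccucuuu
hsa-miR-494-3p: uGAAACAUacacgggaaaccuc
hsa-miR-543: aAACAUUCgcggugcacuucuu
hsa-miR-495-3p: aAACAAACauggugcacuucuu

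For 19q13, miR-519d-3p is shown because its seed is carried by 5 miRNAs outside both clusters that were detected on all 4 arrays.
hsa-miR-519d-3p: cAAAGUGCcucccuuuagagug
hsa-miR-17-5p: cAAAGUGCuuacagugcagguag
hsa-miR-20a-5p: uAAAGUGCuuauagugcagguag
hsa-miR-20b-5p: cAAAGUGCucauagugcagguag
hsa-miR-93-5p: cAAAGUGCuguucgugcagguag
hsa-miR-106b-5p: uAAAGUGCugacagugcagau

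Only miR-494 of the 91 cluster miRNAs was detected, and it was detected on all 4 arrays. The deposited table gives a signal per miRNA and array, a fluorescence intensity in scanner units, and writes 0.1 for an miRNA that was not detected. On 14q32, 1 of 52 miRNAs was above 0.1 on each array, which is 1.92%, and on 19q13 it was 0 of 39. The other human miRNAs were detected at 17.4% and 15.9% in non-MG cells and at 17.2% and 15.3% in MG cells. The shares of viral miRNAs ranged from 1.14% to 3.41%. The share of neither cluster differed between MG and non-MG cells: each difference was 0 percentage points (exact permutation test, two-sided, p = 1, with 0.333 the smallest p that 2 against 2 arrays allow). That test could give no other p here, since each cluster had the same share on all 4 arrays, so it adds nothing to the counts.

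**Figure D1:**
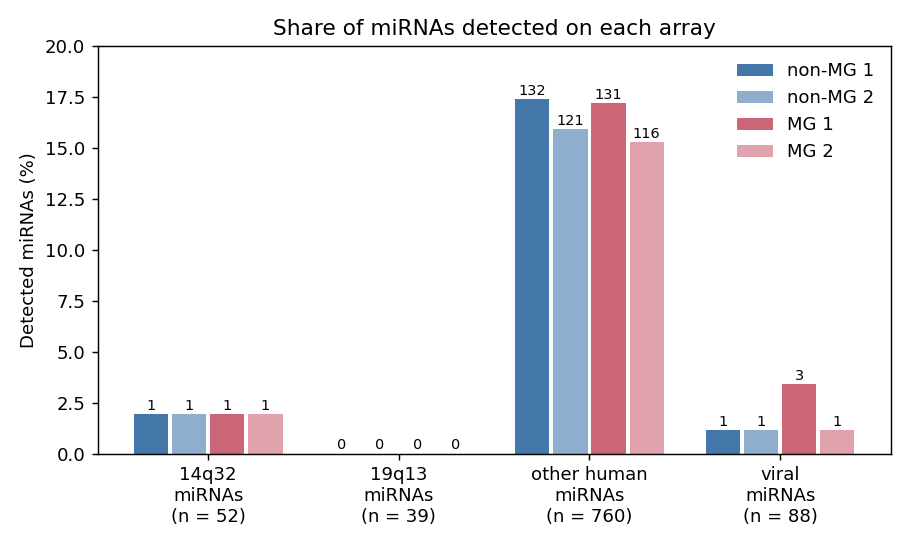
Percent of miRNAs detected on each array (vertical axis) in the 14q32 and 19q13 clusters and in all other human and viral miRNAs; blue bars are non-MG arrays, red bars MG arrays, and the number over each bar is the count detected. The 14q32 bars stood at 1.92%, the 19q13 bars at 0, and those of other human miRNAs between 15.3% and 17.4%.

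None of the 17 star strands with the same numbers was detected. Of the 14q32 cluster miRNAs that the numbers leave out, 0 of 4 were detected. On 19q13, miR-371, miR-372 and miR-373 lie beside C19MC and are known from pluripotent cells, and 0 of their 5 entries were detected.

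Genes of the same bands outside the clusters were read on these arrays. On 14q32, miR-342-3p, made from an intron of EVL, had signals of 11.9 and 9.98 in non-MG cells and 7.75 and 9.42 in MG cells. MiR-203, an epithelial miRNA, was above 0.1 on the first MG array alone, at 5.85, and the other 2 of the 4 entries, miR-342-5p and miR-345, were not detected. On 19q13, let-7e, of the let-7 family, gave 148 and 143 in non-MG cells and 165 in both MG arrays. Its neighbours miR-125a-5p (40.1 to 45.0) and miR-99b (40.4 to 47.1) were also detected on all 4 arrays, while the other 3 strands of this 19q13 group were not. Epithelial miRNAs were read as well. All 5 members of the epithelial miR-200 family (miR-141, miR-200a, miR-200b, miR-200c and miR-429) were detected on all 4 arrays. MiR-192 and miR-194, known from intestinal epithelium, were detected on none, so these miRNAs gave no clear check of the colon origin of the line.

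MiR-494-3p is encoded by MIR494, whose hairpin lies at chr14:101029634-101029714 on the plus strand (GRCh38.p14). The sum of its probe signals on the non-MG arrays was 212.5 and 247.6, against 194.7 and 175.9 for MG cells. After scaling each array to a common 75th percentile the signals were 201.5 and 261.2 in non-MG cells and 191.7 and 179.1 in MG cells. Both MG arrays thus lay below both non-MG arrays, and the non-MG arrays lay further apart than the MG arrays. In RNA from whole populations, fewer cells with an miRNA and less of it per cell cannot be told apart.

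The scaled mean was 231 ± 42.2 in non-MG cells and 185 ± 8.88 in MG cells (SD, n = 2 each), and the MG over non-MG ratio of geometric means was 0.808, a log2 difference of −0.31 (SE 0.15). This difference did not pass limma's test among the 57 human miRNAs with a signal of at least 50 on some array (adjusted p = 0.129), nor among the 115 detected on all 4 arrays (adjusted p = 0.300). The cluster miRNAs called were therefore 0 of the 1 tested, where 24.6% of the 57 and 9.57% of the 115 passed. The 95% interval of the ratio was 0.658 to 0.991 in the fit of 57 and 0.619 to 1.05 in that of 115. Neither interval is adjusted for the number of miRNAs tested. In the fit of 57, limma gave every miRNA the same SE, so that interval rests on a spread pooled over the 57. That it lies below 1 is therefore no measure of the precision of miR-494 alone. In the fit of 115, the SE of miR-494 was 0.172. Separation of both MG from both non-MG arrays in this direction was met by 40.4% of the 57 and 40% of the 115, so a separation of this kind was common on these arrays.

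The second non-MG array decided much of this size. Without it the log2 difference was −0.14, and without the first non-MG array it was −0.50; neither passed the test. All arrays were on 1 slide, non-MG samples in one row and MG samples in the other, so the effects of row and of cell group cannot be told apart.

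Every spot of miR-494 gave signal. The array carries 2 probes of the miRNA with 8 spots each. All 16 spots were well above background on each of the 4 arrays, spots marked as outliers by the scanner software included, and none was saturated. The brighter probe gave totals of 158.3 and 177.6 in non-MG cells, and 142.7 and 130.8 in MG cells, and the dimmer probe 54.29 and 69.98 against 52.01 and 45.03. Both probes read lower on each MG array than on each non-MG array. After scaling, the dimmer probe was nearly level on the first arrays, at 51.47 in non-MG and 51.22 in MG cells. On the second arrays it gave 73.83 and 45.87. Taken alone, the probes gave MG over non-MG ratios of 0.816 and 0.786 after scaling, so the difference did not rest on 1 of them. The probe totals were 9.19 to 9.96 times their error.

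**Figure D2:**
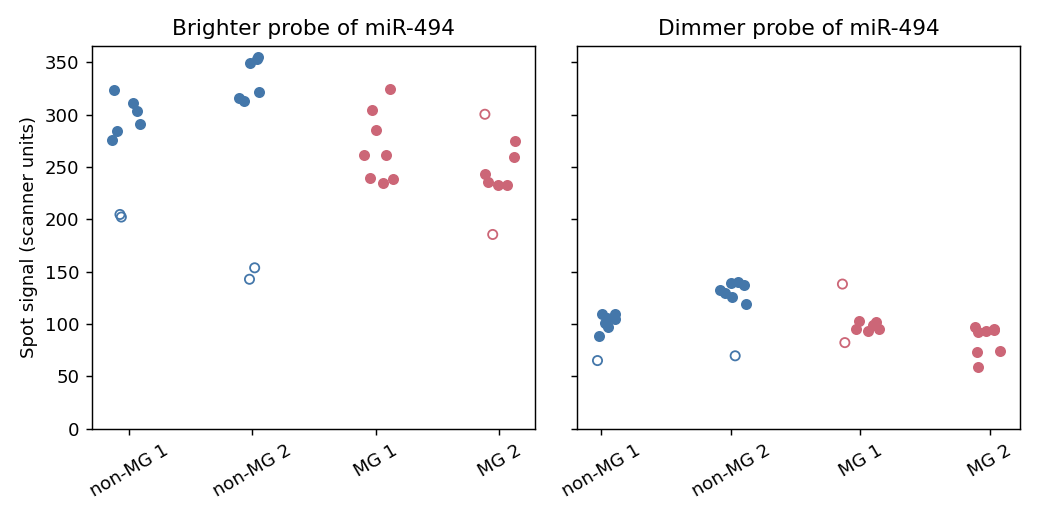
Processed spot signal of miR-494 in scanner units (vertical axis, from 0) on each array, for its brighter probe (left) and its dimmer probe (right); filled points are spots kept and open points are spots the scanner software marked as outliers. The medians of the kept spots of the brighter probe were 297 and 335 in non-MG cells and 261.5 and 239.4 in MG cells.

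MiR-494 stood alone along its cluster. RefSeq's table placed 41 hairpin genes of 14q32 members in order, and MIR494 was number 17. The nearest upstream gene, MIR329-2, ends 2450 bases before it, and the nearest downstream gene with a probe, MIR543, starts 2272 bases after it. MiR-329-3p, which is also made from MIR329-1, had a best probe signal of −0.358 and −1.05 times its error in non-MG cells and −0.354 and −0.428 times in MG cells, where a value below 0 means a signal under the subtracted background. MiR-543 reached 1.29 times its error on the first non-MG array and at most 0.213 times on the other three. MiR-495-3p, the next gene on, was below 0 on all 4 arrays, from −0.678 to −0.127 times its error. Signal above the limit of 3 times the error was thus seen at 1 of 41 hairpin genes.

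**Figure D3:**
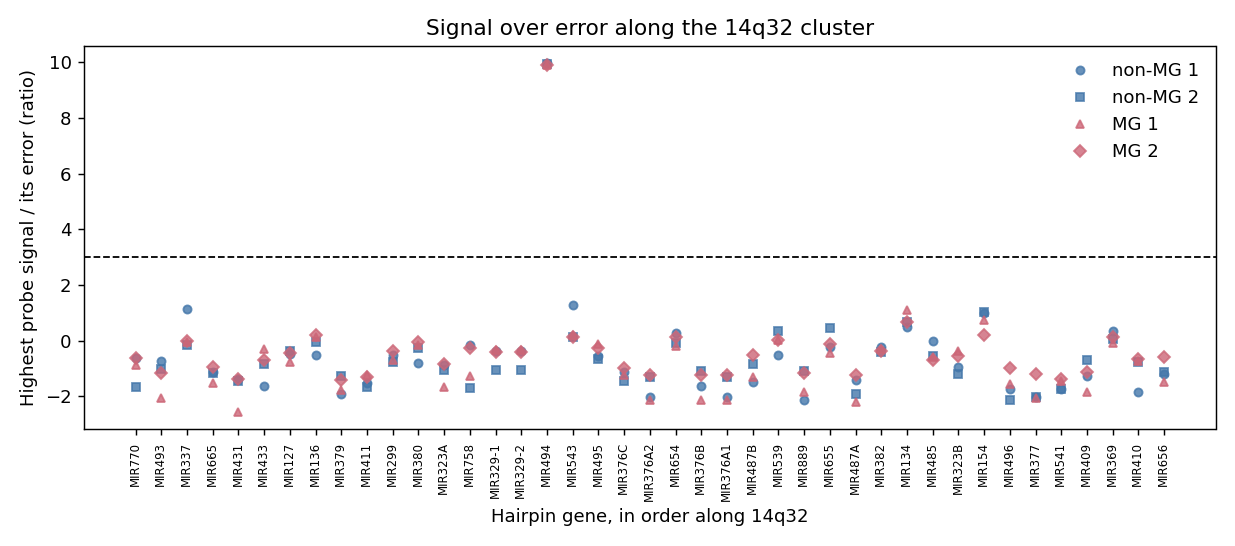
Highest probe signal divided by its error (vertical axis, ratio) for 41 hairpin genes of the 14q32 cluster in their order on the chromosome (horizontal axis, equal steps, not to scale); marker shapes are the 4 arrays and the dashed line is the detection limit of 3. MIR494 lay at 9.89 to 9.96 and its neighbours MIR329-2 and MIR543 at −1.05 to 1.29.

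The sequence of miR-494-3p was compared with the other members, since array probes are read by hybridisation. The longest run of bases shared with another member was 9, with miR-485-3p of the same cluster, shown here with the shared run in capitals.
hsa-miR-494-3p: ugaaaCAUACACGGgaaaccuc
hsa-miR-485-3p: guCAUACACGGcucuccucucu
MiR-485-3p was not detected on any array: its best probe signal lay between −0.902 and −0.0157 times its error. The next longest runs were 7 bases, with miR-299-5p and miR-323a-3p, neither of them detected. Among the 93 miRNAs outside the clusters that were detected on all 4 arrays and had a matched sequence, of 114 detected, the longest run was 6 bases, with miR-30c-5p and miR-455-3p. The detected miRNAs without a matched sequence were not compared, and they include the bright miR-923 and miR-720. The GC content of miR-494-3p, 45.5%, equalled the median of those 93 miRNAs. The median GC content was 47.6% in the 14q32 members and 45.5% in the 19q13 members, against 47.8% in the other human miRNAs. These comparisons use miRNA sequences, not probe sequences, so whether other RNAs bound the miR-494 probes was not tested.

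The remaining 90 members had no spot well above background once outlier spots were left out. With outlier spots kept, there were 10 such single spots of 16 per miRNA and array: 5 on the first non-MG array, 1 on the second, 3 on the first MG array and 1 on the second. They belonged to miR-134-5p, miR-485-3p and miR-487a-3p on 14q32 and to miR-515-3p, miR-516b-5p, miR-519b-3p, miR-519d-3p and miR-520b on 19q13. MiR-519b-3p and miR-519d-3p had such a spot on 2 arrays each.

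A probe had to exceed 3 times its error to count as detected. For the most sensitive probe of each undetected member, this limit had a median of 3.36 and 4.48 scanner units in non-MG cells, and of 3.68 and 5.41 in MG cells, the same in both clusters. The second MG array thus had the highest limit, and it also had the fewest human miRNAs detected, 117 against 122 to 133 on the other arrays. The best probe signal over error reached 1.29, 1.02, 1.09 and 0.679 among the undetected 14q32 members on the non-MG 1, non-MG 2, MG 1 and MG 2 arrays, and 1.17, 1.78, 2.37 and 0.925 among the 19q13 members. The member nearest to the limit was miR-520d-3p of 19q13, and the nearest above it was miR-494. Signals below these limits were not detectable on these arrays, which differs from being absent.

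**Figure D4:**
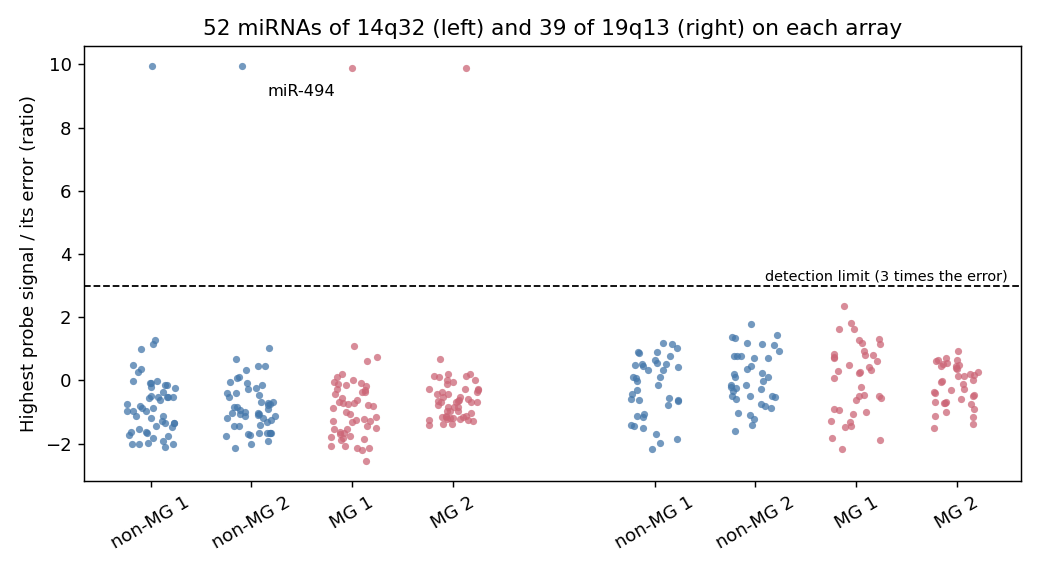
Highest probe signal divided by its error (vertical axis, ratio) for each of the 52 members of 14q32 (left) and 39 of 19q13 (right) on each array; each point is 1 miRNA, blue for non-MG and red for MG arrays, and the dashed line is the limit of 3. The 4 points of miR-494 lay near 10, and the highest other point was 2.37.

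Below the detection limit, the clusters differed in how many of their spots were marked by the scanner software as positive and significant against background, a weaker mark than well above background. For the undetected 14q32 members these made up 5.63% and 1.98% of spots in non-MG cells, and 3.19% and 0.8% in MG cells. For the 19q13 members the shares in non-MG cells were 12.4% and 14.4%, and in MG cells 19% and 6.2%. Undetected human miRNAs other than the chosen members had 6.44% and 6.06%, then 6.46% and 3.13%, and undetected viral miRNAs 1.06% to 3.33%. These other human miRNAs include the star strands and further miRNAs of the clusters that the choice left out. On every array the 19q13 share was above those of the other undetected miRNAs, and the 14q32 share was below that of the other human miRNAs. The arrays' negative control spots, which match no miRNA, carried the mark far more often, at 95.8% and 91.3% in non-MG cells and at 93.1% and 80.7% in MG cells, and 52 and 6 of them in non-MG cells and 17 and 0 in MG cells were also well above background. The mark therefore shows no expression of a miRNA by itself, here or in the shares by sequence that follow. These shares are a description without a test, since spots of 1 array share its background.

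The marked spots of 19q13 lay mostly in a group of related 3p strands, which were singled out after their values were seen. MiR-520d-3p had 6 and 9 marked spots in non-MG cells, and 12 and 5 in MG cells, 32 of 62 in all. MiR-520c-3p followed with 22 of 58, miR-520f-3p with 21 of 55 and miR-520g-3p with 20 of 60. Of the 10 undetected members with the most marked spots, 9 were from 19q13, where 39 of the undetected members lay, against 51 on 14q32. The exception was miR-134-5p of 14q32, known for its role in neurons, with 16 of 57. MiR-520b and miR-520e, 2 of the 10, had no matched sequence and were left out of the motif shares that follow. At the other end, 26 members of 14q32 and 10 of 19q13 had no marked spot on any array.

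These 3p strands carry the bases AAGUGC near their 5′ end, shown here in capitals, together with strands outside the chosen members that also carry them. All were below the detection limit on every array.
hsa-miR-520d-3p: aAAGUGCuucucuuuggugggu
hsa-miR-520c-3p: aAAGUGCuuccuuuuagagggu
hsa-miR-520f-3p: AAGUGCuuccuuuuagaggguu
hsa-miR-520g-3p: acaAAGUGCuucccuuuagagugu
hsa-miR-526b-3p: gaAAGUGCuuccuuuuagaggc
hsa-miR-302a-3p: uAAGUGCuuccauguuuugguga
hsa-miR-372-3p: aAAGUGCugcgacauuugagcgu
Searched as AAGUGC on the miRNA strand alone, the motif was in 28 of the 737 human miRNAs matched to RefSeq, or 3.8%. It was in 11 of the 33 matched 19q13 members and in 0 of the 51 matched 14q32 members.

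The 11 members of 19q13 with the motif had 22.3% and 30.6% of their spots marked in non-MG cells, and 37.9% and 13.8% in MG cells. The 22 without it had 6.6% and 4.88%, then 6.77% and 1.81%, near the 6.22%, 5.86%, 6.04% and 2.89% of the other undetected human miRNAs without the motif. MG 1 was the highest and MG 2 the lowest of the 4 arrays for the members with the motif, so the 2 MG arrays lay on either side of both non-MG arrays. The 11 undetected human miRNAs outside the members that hold the motif had 9.52% and 14.6%, then 15.6% and 6.43%. Within these, miR-302a-3p, of the pluripotency-linked miR-302 family, had 20 of 57 spots marked and miR-526b-3p, the minor strand of a C19MC gene, 16 of 59, while miR-372-3p and miR-373-3p had 0 of 61 and 0 of 56. Within 19q13, miR-520h holds the motif and had 2 of 64 spots marked, while miR-515-3p lacks it and had 19 of 58. The motif was thus present both in strands with many marked spots and in strands with few or none, and since it was read from the strands with the most marked spots, its shares are no independent evidence.

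**Figure D5:**
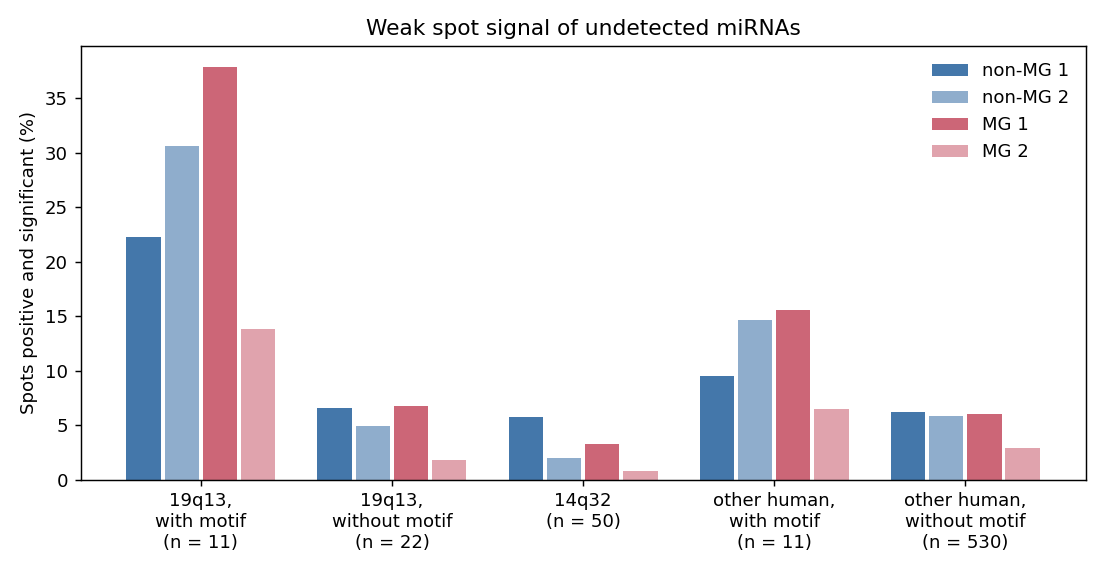
Percent of spots marked positive and significant (vertical axis, from 0) on each array for undetected miRNAs matched to RefSeq, by cluster and by whether the sequence holds AAGUGC; blue bars are non-MG arrays and red bars MG arrays. The 19q13 members with the motif stood at 13.8% to 37.9%, and those without it at 1.81% to 6.77%.

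The 5 detected miRNAs with the seed of miR-519d-3p belong to the miR-17 family, known for promoting growth, and their unscaled signals ran from 238.7 to 317.4 for miR-20a-5p down to 32.1 to 63.2 for miR-20b-5p. Limma called 3 of the 5 lower in MG cells among 57 miRNAs (miR-17-5p, miR-20b-5p and miR-93-5p). Of all 57, 8 were called lower and 24.6% were called in either direction. Among 115 it called 1 of the 5 lower, miR-20b-5p, where 8 of all 115 were called lower and 9.57% in either direction. MiR-519d-3p itself was not detected, with a best ratio of signal to error between 0.106 and 1.62. Whether RNA of the miR-17 family had a part in the marked spots of the 19q13 probes was not tested.

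Seeds otherwise set the members apart from one another. The 84 members with a sequence held 71 different seeds, of which 61 belonged to 1 member each. The most shared seed, of 4 members, was that of miR-518a-3p, miR-518b, miR-518c-3p and miR-518d-3p on 19q13, and none of its members was detected. No matched human miRNA outside the clusters that was detected on all 4 arrays shared the seed of miR-494-3p or of any other matched 14q32 member.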

How the data were processed

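The arrays were 1-colour Agilent human miRNA arrays read with Feature Extraction 10.7.1.1, as the deposited file headers state; the spot, probe and miRNA intensities in these deposited files were background-subtracted by the authors' scanner software and not normalised between arrays. The deposited detection and outlier flags are 0 or 1. In the authors' value table, each signal of the 142 detected miRNAs equalled the sum of its probe totals over 3 times their error, within 5.73e-05%. Its 0.1 marks no detection, and for the cluster miRNAs it equalled the scanner software's detection flag on every array. Its older names were matched to the scanner files' names.

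Each array's probe sums were divided by their 75th percentile, taken over the 116 miRNAs that every array detected (142.4 to 158.5 before scaling), floored at 1 and tested on log2 values with limma 3.58.1 and Benjamini-Hochberg adjustment over all human miRNAs in each fit. One fit took miRNAs that reached a signal of 50 on some array, the other those detected on all 4; the code was tested on simulated data. The number of arrays limits the precision. Sequences matched by exact name for 84 of 91 members and 737 of 851 human miRNAs. Probe sequences were not used here.

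The rule for naming covered every detected member, detected miRNAs sharing a member's seed, and fixed lists by count. Other names were added outside this rule. Among them are members with outlier or marked spots, the neighbours of MIR494, the strands with AAGUGC and the epithelial miRNAs. The 5 undetected members with the most spots well above background could not be named, since none had such a spot outside the outliers. The members and lists were chosen with earlier results of these data known. Alternatives covered the detection rule, signal, background, scaling, floor, filter, test, replicate block and each array left out.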

Additional observations from a re-analysis of the deposited data

How the results depend on the processing

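The detected counts (1 on 14q32, 0 on 19q13) and both differences in share were the same under each of the 4 other detection rules and without each array. Leaving out an array could not change them, since each cluster had the same count on every array. Nor could 1 of the rules, the scanner software's detection flag, since it equalled the mark of 0.1 for all cluster miRNAs. The members' 54 spots well above background became 434 with the weaker positive and significant mark; with outlier spots kept, a choice made after seeing the data, they were 74. MiR-494 was lower in MG cells under all 15 alternatives of each fit, with log2 differences from −0.53 (total per miRNA) to −0.14 (without the second non-MG array). It passed under 1, an intensity trend in limma in the fit of 57 (adjusted p = 0.0489; range over alternatives 0.0489 to 0.733), and under none in the fit of 115 (0.0706 to 0.716). Either probe alone, also added later, gave −0.29 or −0.35.

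The counts called over all miRNAs moved more than the miR-494 result. In the fit of 57, 14 were called; this became 0 with the total per miRNA, which let 89 miRNAs past the minimum (28 at an unadjusted p under 0.05), 0 with the unpaired test given in legends of the study's other assays (7 unadjusted), 9 with normexp, 6 with no normalization and 3 to 11 without single arrays. In the fit of 115, 11 were called; this became 0 with the total per miRNA (38 unadjusted), 0 with the unpaired test (13), 0 with a floor of 10 (25), 24 with the trend, 1 of the 139 miRNAs detected on at least 1 array and 0 to 18 without single arrays. A lone array left in a group was assumed to vary like the other group. The cause was not tested. The median log2 difference of all miRNAs tested was −0.11 in the main fit of 115 and −0.29 over the same number with the total per miRNA.

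With the replicate number as a block, 8 were called in the fit of 57 and 18 in that of 115. The arrays share only a number: same-numbered deviations correlated at 0.481 and 0.263 over miRNAs in 2 pairs. MiR-494 did not pass with the block (adjusted p = 0.167 and 0.268). With 2 arrays a group, small differences of miR-494 and signals under 3 times the error could not be resolved.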
